A study of Mus musculus with 6 samples.

Results

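Regions listed for WDR5 in both rescue lines are described here. They are the regions of the wild-type rescue WDR5 list on chromosomes 1 to 19 that a region of the mutant rescue WDR5 list overlaps by at least 1 bp. There were 1312 such shared regions among 10942 on those chromosomes (12%), from a whole list of 11095 regions. The remaining 9630 had no overlap in the mutant rescue list and are called unshared. The mutant rescue list held 26691 regions on chromosomes 1 to 19, and 1319 of them touched a shared region. The regions were chosen by the overlap of both WDR5 lists, so their presence in both lists is not a finding. Their WDR5 widths, folds, significance and summit distances are given as a description without a test.

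The series is chromatin immunoprecipitation sequencing (ChIP-seq) of mouse embryonic stem cells. All samples share an Rx:GFP knock-in, culture in 2i+LIF (a pair of kinase inhibitors with leukaemia inhibitory factor) and a double knockout of Wdr5 and p53. One line was rescued with wild-type WDR5 (WT rescue) and the other with WDR5 carrying S91K and Y191F (mutant rescue). Cells were fixed for 10 minutes in 1% formaldehyde, per the labels. Each line has 1 WDR5 list, 1 H3K4me3 list and an input that was not analysed here, so no difference between lines has a replicate check. Both lines carry the knockouts, and whether a line is 1 clone is not given in the sources used here. Read depth is unknown, since the lists carry no read totals. H3K4me3 lay at a boundary of 22 of 24 naive pluripotency genes in each line, beside 69.9% and 69.1% of all protein-coding genes. Among 13 fibroblast markers, listed with feeder cells in mind, 9 with wild-type WDR5 and 6 with the mutant had H3K4me3. Since most protein-coding genes had it too, these counts do not show whether feeder cells were present.

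WDR5 is a scaffold protein with a ring of WD repeats, and it holds together the KMT2 and SETD1 enzyme complexes, which methylate histone H3 on lysine 4. Trimethylation there (H3K4me3) marks the first nucleosomes of many promoters. WDR5 also binds other partners, among them MYC, and in other cell types its best known direct targets include genes for ribosomal proteins, the structural subunits of the ribosome.

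The sequences at the start sites of genes with strong shared regions are shown first, because many such regions lay just downstream of the start. RefSeq promoters on GRCm38.p6, which has mm10 coordinates, were available for 554 of the 706 protein-coding genes with a shared region. The following stretches run 5′ to 3′ along the gene from 100 bases before the start to 20 bases from the start on. Capitals mark the longest run of pyrimidines (C or T) that lies within 5 bases of the start. Rps6 lies at chr4:86857348-86857467 on the minus strand, Rpl38 at chr11:114668480-114668599 on the plus strand, Rpl7a at chr2:26910707-26910826 on the plus strand, Rpl12 at chr2:32961612-32961731 on the plus strand and Rpl31 at chr1:39367751-39367870 on the plus strand. These 5 were picked for a run of at least 7 pyrimidines. Other promoters with strong shared regions have shorter runs, with 4 bases at Rpl13, 6 at Brd2, 2 at Eef2, 5 at Rps7 and 1 at Rpl10a. Messages of the translation machinery are known to begin with such a pyrimidine tract, through which their translation is controlled.
Rps6: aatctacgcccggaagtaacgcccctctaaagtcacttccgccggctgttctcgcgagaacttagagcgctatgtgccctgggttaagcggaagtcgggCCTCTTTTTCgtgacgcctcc
Rpl38: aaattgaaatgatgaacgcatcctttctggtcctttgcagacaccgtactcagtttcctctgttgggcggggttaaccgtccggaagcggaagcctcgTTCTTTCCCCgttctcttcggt
Rpl7a: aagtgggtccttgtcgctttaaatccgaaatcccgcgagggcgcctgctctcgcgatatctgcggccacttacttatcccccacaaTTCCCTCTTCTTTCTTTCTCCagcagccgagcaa
Rpl12: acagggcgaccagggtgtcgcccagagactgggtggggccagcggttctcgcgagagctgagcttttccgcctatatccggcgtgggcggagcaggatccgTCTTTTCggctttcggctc
Rpl31: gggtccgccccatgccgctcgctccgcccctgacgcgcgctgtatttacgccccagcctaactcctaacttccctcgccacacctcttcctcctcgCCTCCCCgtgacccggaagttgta

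A pair of motifs is shown because both were more frequent in promoters with a shared region than in those with an unshared one. In the next stretches capitals mark the E-box CACGTG, which MYC and its relatives recognise, or the core TCTCGCGA on either strand, which the zinc-finger protein ZBTB33 recognises. The E-box stretches are Eef2, for a translation elongation factor, at chr10:81176561-81176620 on the plus strand, Mnt at chr11:74830774-74830833 on the plus strand, Eif4g1 at chr16:20672646-20672705 on the plus strand and Hspbap1 at chr16:35770333-35770392 on the plus strand. The core is shown for Rpl10a at chr17:28328509-28328568 on the plus strand, Rpl26 at chr11:68901515-68901574 on the plus strand and Rps15a at chr7:118116181-118116240 on the minus strand.
Eef2: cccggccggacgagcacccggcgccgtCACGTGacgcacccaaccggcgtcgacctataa
Mnt: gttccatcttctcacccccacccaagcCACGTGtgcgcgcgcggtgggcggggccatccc
Eif4g1: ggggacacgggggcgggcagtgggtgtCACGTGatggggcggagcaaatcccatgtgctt
Hspbap1: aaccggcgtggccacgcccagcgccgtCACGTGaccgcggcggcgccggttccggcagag
Rpl10a: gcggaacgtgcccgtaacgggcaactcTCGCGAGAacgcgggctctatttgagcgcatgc
Rpl26: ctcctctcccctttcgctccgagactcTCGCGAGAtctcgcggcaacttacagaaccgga
Rps15a: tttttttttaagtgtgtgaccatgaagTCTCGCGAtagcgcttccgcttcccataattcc

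Within a WDR5 list each region carries the authors' fold, the enrichment at its summit, and a −log10 q, its significance after correction. Both belong to their own list, so values of the lines are given side by side. Shared regions had a median width of 283 bp in the WT rescue list and 300 bp in the mutant rescue list, with median folds of 3.04 and 2.88. The unshared WT rescue regions had a median fold of 2.65. WT rescue folds spanned 1.20 to 63.1 and mutant rescue folds 1.16 to 61.0. Across the 1312 regions, which share their libraries, Spearman's rho between the folds of the lines was 0.556.

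Sharing was most common among the strongest regions. At a −log10 q of 10 or more, 281 of 321 WT rescue regions (87.5%) were shared, as were 310 of 812 (38.2%) from 2 to under 10. Above 0 and under 2 the share was 506 of 5092 (9.94%), and at 0 it was 215 of 4717 (4.56%). A −log10 q of at least 2 was reached by 591 shared regions with wild-type WDR5 and by 625 with the mutant, beside 10.4% and 4.65% of all regions of the respective list on these chromosomes. It was reached in both lists by 427 regions (32.5%) and in neither by 523 (39.9%).

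Most of the overlaps were close, which the overlap rule itself favours, so the distances are a description. The WDR5 summits of the lines lay a median of 59 bp apart (quartiles 15 and 158 bp), and 604 regions (46.0%) had summits within 50 bp. In 812 regions (61.9%) the overlap covered at least 50% of both regions. Only 27 regions touched more than 1 mutant rescue region. At the edge of the rule, regions inside Trak2 (a trafficking adaptor gene) and Ankrd17 and at a boundary of Ralgds overlapped by 1 bp, with WT rescue folds of 3.08, 1.92 and 2.63. The nearest unshared regions lay inside Osbp2, Tmtc1 and Slc2a13 with gaps of 0, 1 and 1 bp and folds of 2.31, 3.04 and 2.57. Values on both sides of the edge were therefore alike, and 109 unshared regions had a mutant rescue region within 100 bp.

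H3K4me3, measured in other libraries and not used to choose the regions, covered most shared regions in both lines. In the WT rescue 1123 of 1312 (85.6%, exact 95% interval 83.6 to 87.5%) overlapped an H3K4me3 region, against 3899 of 9630 unshared regions (40.5%, 39.5 to 41.5%) and 45.9% of all. In the mutant rescue 1090 shared regions (83.1%, 80.9 to 85.1%) did, against 40.3% of unshared ones and 45.4% of all. Both lines had H3K4me3 at 1072 shared regions (81.7%) and neither had it at 171 (13.0%). These intervals are Clopper-Pearson intervals and cover counting error only.

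The gap was widest among the weakest regions. At a WT rescue −log10 q of 0, 82.3% (76.6 to 87.2%) of 215 shared regions had WT rescue H3K4me3, against 33.5% (32.1 to 34.9%) of 4502 unshared ones. From 2 to under 10 the shares were 82.3% (77.5 to 86.3%) and 64.3% (59.98 to 68.5%). At 10 or more they were 91.1% (87.1 to 94.2%) and 77.5% (61.5 to 89.2%), with only 40 unshared regions and intervals that overlap. Across the 4 bands of significance the shared regions stayed between 82.3 and 91.1%, while the unshared share was higher in each stronger band.

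**Figure D1:**
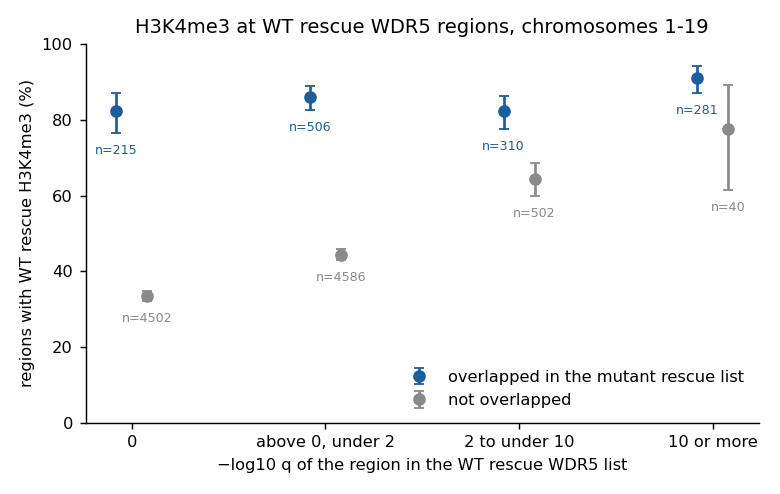
Percentage of WT rescue WDR5 regions that overlap a WT rescue H3K4me3 region, by the −log10 q of the WDR5 region; points are shares, bars exact 95% binomial intervals, n the number of regions. Shared regions (blue) stay between 82.3 and 91.1%, and unshared regions (grey) run from 33.5 to 77.5%.

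Shared regions lay at gene boundaries more often than unshared ones. A boundary, either annotated end of a protein-coding gene, was within 1 kb of 629 shared regions (47.9%, 45.2 to 50.7%), against 28.3% (27.4 to 29.2%) of unshared regions and 30.7% of all. The difference was not seen among regions with a WT rescue −log10 q of at least 2, where 38.4% (34.5 to 42.5%) of shared and 38.9% (34.8 to 43.2%) of unshared regions lay at a boundary. Away from boundaries the order was the opposite. Inside a gene lay 296 shared regions (22.6%), against 35.8% of unshared ones and 34.2% of all, and between genes 387 (29.5%), against 35.9% and 35.1%. H3K4me3 in the WT rescue was present at 97.0% of shared regions at boundaries, against 90.6% of unshared ones there. Inside genes the shares were 76.7% (71.4 to 81.4%) and 24.6% (23.2 to 26.1%), and between genes 73.9% (69.2 to 78.2%) and 16.7% (15.5 to 18.0%).

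The summits gathered downstream of start sites. On the chromosomes with start site entries, 574 of 1284 shared regions (44.7%, 42.0 to 47.5%) had their WT rescue summit within 1 kb of a start, against 26.0% of unshared regions and 28.3% of all. With a −log10 q of at least 2 these shares were 37.0% (33.0 to 41.1%) and 35.7% (31.6 to 40.0%), and below 2 they were 51.0% (47.2 to 54.7%) and 25.5% (24.6 to 26.4%). The median position of the 574 summits was 141 bp downstream (quartiles 71 bp upstream and 294 bp downstream), and 161 (28.0%, 24.4 to 31.9%) lay 100 to 250 bp downstream. For unshared regions the median was 160 bp downstream and the share at 100 to 250 bp was 21.9% (20.3 to 23.6%). Among summits with a −log10 q of at least 2, that share was 40.4% (33.7 to 47.3%) of 213 shared and 23.5% (17.6 to 30.3%) of unshared ones. Ribosomal protein genes, described below, are part of the shared group. Of 35 with a start entry 31 had the WT rescue summit 100 to 250 bp downstream, and the share without them was not computed. H3K4me3 summits at the same shared starts lay further in, at medians of 226 bp with wild-type WDR5 and 203 bp with the mutant.

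**Figure D2:**
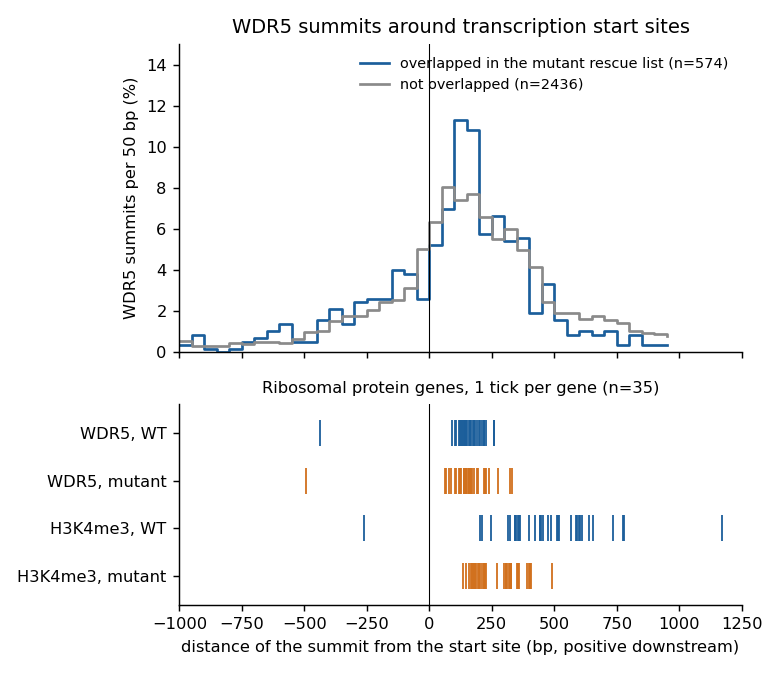
Upper panel, share of WDR5 summits per 50 bp against distance from the nearest start site, for 574 shared (blue) and 2436 unshared (grey) WT rescue regions; lower panel, summits at ribosomal protein genes, 1 tick per gene and list. Shared summits peak between 100 and 250 bp, and at ribosomal protein genes most WDR5 ticks of both lines (31 and 27 of 35) fall there while the WT rescue H3K4me3 ticks spread further downstream.

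Among protein-coding genes, 706 of 20665 (3.42%) had a shared region at a boundary, and 176 (0.852%) had one with a −log10 q of at least 2 in both lists. Over all such genes the median folds were 3.003 with wild-type WDR5 and 2.84 with the mutant. The cytosolic ribosomal protein genes had the highest share of the 18 gene lists, 46 of 79 (58.2%, 46.6 to 69.2%), of which 39 reached a −log10 q of at least 2 in both lists. The list's overlap with WDR5 was known when the list was chosen, so the count describes it and does not test it. Of the other 33 genes, 12 had unshared WT rescue regions only. These counts take regions within 1 kb of a gene boundary, so a region further inside a gene is not counted. Rps3a1, which the list's name pattern misses, also had a shared region.

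The 46 ribosomal protein genes with a shared region, called shared below, encode 33 large-subunit and 13 small-subunit proteins. Most of their regions were broad and strong in both lists. Their median fold was 11.1 in the WT rescue (2.24 to 17.1) and 11.5 in the mutant rescue (2.08 to 17.8), and 27 of the 46 had the higher number in the mutant rescue list. Median widths were 1095 and 1197.5 bp. Rps6, for a small-subunit protein that is phosphorylated in growth signalling, had the highest WT rescue fold, 17.1, beside 14.3 in the mutant rescue list. Rpl26, whose product also binds p53 messenger RNA, had the highest mutant rescue fold, 17.8, beside 11.2 in the WT rescue list. Rpl13 had the highest −log10 q of the 46 in both lists, 91.7 and 121. Rpl30, Rpl3, Rps13 and Rpl22 were weak, with WT rescue folds of 2.46, 2.24, 2.73 and 2.84. Their WT rescue −log10 q was 0, 0.0442, 0.387 and 0.854. Ribosomal protein genes have processed copies elsewhere in the genome, and how reads with several matches were placed is not given in the sources used here.

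Position within these genes was tight. For the 35 genes with a start entry the WDR5 summit lay a median of 158 bp downstream with wild-type WDR5 and 149 bp with the mutant. It lay 100 to 250 bp downstream in 31 and 27 of them, and the summits of the lines were a median of 33 bp apart. At Rps6 the summits were 145 and 147 bp in, and at Rpl7a at 138 and 158 bp. Rpl22 was the only one of the 35 with an upstream WT rescue summit, its summits lying 438 and 493 bp upstream of its start entry.

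H3K4me3 at the ribosomal protein genes stood differently in the lists of the 2 lines. All 46 shared genes carried H3K4me3 in both lines. All 46 had the higher H3K4me3 fold in the mutant rescue list, with medians of 5.47 and 9.06. At Rpl22 the H3K4me3 regions compared were unlike. The WT rescue one was 258 bp wide (fold 1.58) and the mutant rescue one 2078 bp (fold 9.91). Because folds of different libraries are not on a common scale, each gene was also ranked within its own list over the same 10536 genes. All 10536 had their start in an H3K4me3 region in both lists. Of the 35 shared ribosomal protein genes with a start entry, 24 were among them. Rpl13 was not, so the ranking covers only part of the group. The 24 shared ribosomal protein genes had a median percentile of 8.50 in the WT rescue (quartiles 4.29 and 10.5) and 34.5 in the mutant rescue (23.9 and 43.5). These quartile ranges do not overlap. The 24 ranked genes thus stood near the bottom of the H3K4me3 ranking in the WT rescue list and nearer its middle in the mutant rescue list.

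The same genes had narrower H3K4me3 regions in the mutant rescue list. Their median widths were 2471 bp with wild-type WDR5 and 1960 bp with the mutant, narrower in the mutant rescue at 23 of 24, beside 74.3% of all 10536 genes. The H3K4me3 summit lay a median of 460 bp downstream of the start with wild-type WDR5 and 259 bp with the mutant, nearer the start in the mutant rescue at 23 of 24, beside 51.0% of all genes. At Rps24, for example, the region was 3572 bp wide in the WT rescue list (fold 4.16) and 1603 bp wide in the mutant rescue list (fold 9.20). At Rpl7a the H3K4me3 summit was 781 bp downstream with wild-type WDR5 and 159 bp with the mutant.

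Ribosomal protein genes without a shared WDR5 region had narrower H3K4me3 regions in the mutant rescue list almost as often, at 18 of 19. Their median widths were 2468 bp with wild-type WDR5 and 2045 bp with the mutant. The summit was nearer the start in the mutant rescue at 13 of these 19. In fold and percentile, other genes showed smaller differences. The mutant rescue fold was the higher number at 17 of 19 ribosomal protein genes without a shared WDR5 region, whose median percentiles were 10.8 and 24.4. It was the higher number at 326 of 436 other genes with a shared region (74.8%, percentiles 44.9 and 48.6), at 46 of 65 mitochondrial ribosomal protein genes (70.8%) and at 59.4% of all genes. The median ratio of the mutant rescue fold to the WT rescue fold was 1.59 for the 24 shared ribosomal protein genes and 1.31 for the 19 others. It was 1.06 for other genes with a shared region and 1.03 for all genes. With 1 H3K4me3 library per line, line and library cannot be told apart in these values.

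**Figure D3:**
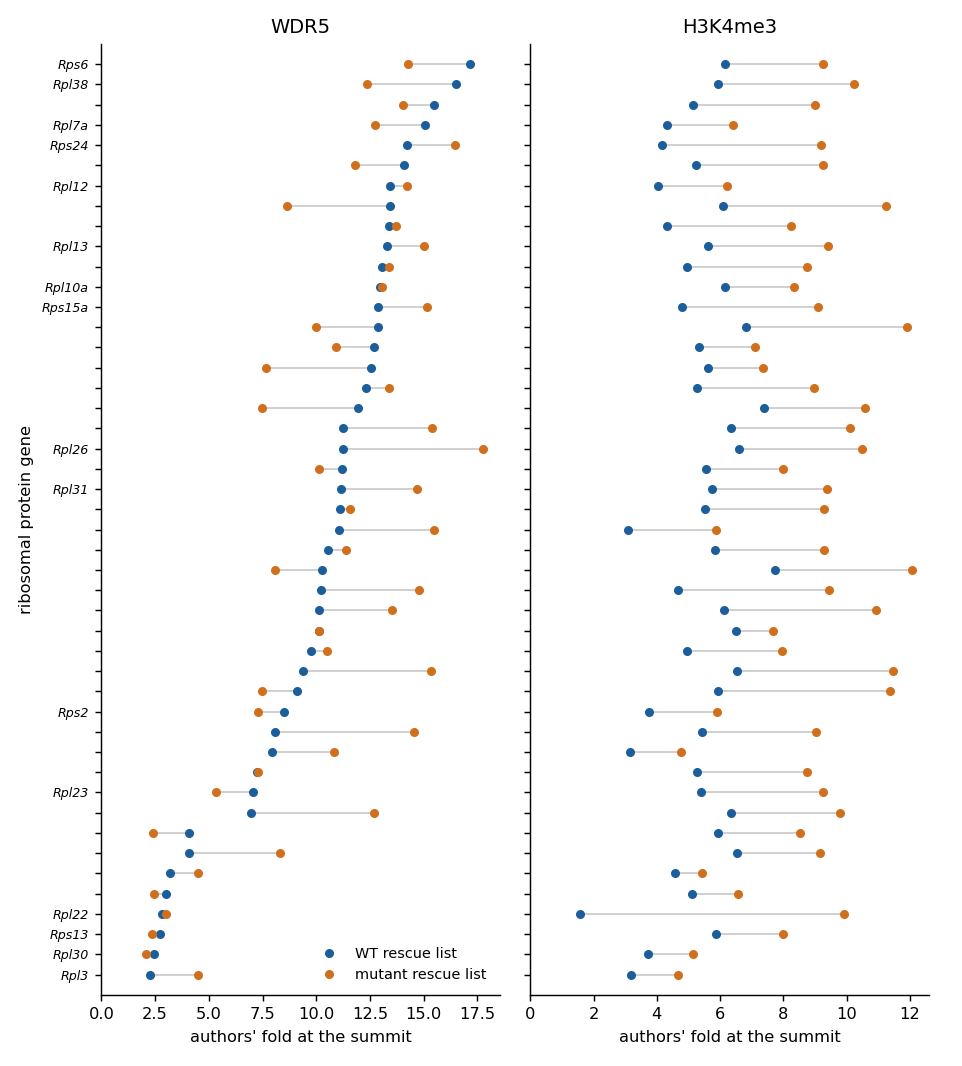
The authors' fold at the 46 ribosomal protein genes with a shared WDR5 region, for WDR5 (left) and H3K4me3 (right), in the WT rescue list (blue) and the mutant rescue list (orange), each on a linear axis from 0 and ordered by WT rescue WDR5 fold, with labels for genes named in the text. For WDR5 the higher number is in either list (27 of 46 in the mutant rescue), and for H3K4me3 it is in the mutant rescue list at all 46. At Rpl22 the H3K4me3 regions compared are 258 and 2078 bp wide.

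Translation factors had shared regions less often than ribosomal protein genes. Of 37, 8 (21.6%, 9.83 to 38.2%) had a shared region, 5 of them with a −log10 q of at least 2 in both lists. Eef2, the factor that moves the ribosome along the message, had folds of 17.1 and 8.70, with summits 186 and 210 bp downstream of its start. Eef1g, a subunit of the factor that recharges elongation factor 1 alpha, had 16.03 and 11.5, and Eif3d, an initiation factor subunit, 11.8 and 8.01. Rack1, a scaffold on the small subunit, had 9.47 and 7.85, while Eif4a2, an RNA helicase, had 5.28 and 1.92. The −log10 q at Eif4a2 was 0.0171 in the mutant rescue list. Genes that host small nucleolar RNAs, which guide the modification of ribosomal RNA, had a shared region at 10 of 22 (45.5%, 24.4 to 67.8%). The share of all genes was 3.42%. Of those 10, however, 5 are ribosomal protein genes and 3 are translation factor genes.

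Lists of other ribosome and housekeeping genes are read beside the 3.42% of all genes, which lies within the interval of each. Of 37 nucleolar and ribosome biogenesis genes 3 (8.11%, 1.70 to 21.9%) had a shared region, at Gnl3, Polr1c and Gar1, with WT rescue folds of 3.75, 3.17 and 3.03 and none at a −log10 q of 2 in both lists. Of 77 mitochondrial ribosomal protein genes only Mrpl36 had one (folds 2.86 and 2.97), a share of 1.299% (0.0329 to 7.02%). The oxidative phosphorylation list had 1 of 79 (1.27%, 0.0320 to 6.85%), Ndufb10, whose region is that of its neighbour Rps2. The proteasome list had 1 of 38 (2.63%, 0.0666 to 13.8%), Psmd9, with a −log10 q of 0 in the WT rescue list and 0.455 in the mutant rescue list.

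Splicing genes had a shared region at 9 of 73 (12.3%, 5.80 to 22.1%), beside 3.42% of all genes. Of the 9, 3 reached a −log10 q of at least 2 in both lists. They were led by Snrpb, a core protein of the spliceosome's small nuclear particles (folds 14.7 and 9.24). Sf3b3 shares a region with the neighbouring gene Cog4 (6.45 and 12.1). Replication-dependent histone genes had 7 of 64 (10.9%, 4.51 to 21.2%), and none reached a −log10 q of 2 in both lists. The neighbours H2ac15 and H2bc15 were counted from 1 region and H2ac13 and H2bc13 from another. In the Myc network 3 of 13 (23.1%, 5.04 to 53.8%) had a shared region, 1 of them with a −log10 q of at least 2 in both lists. They were Mnt, a MAX partner that opposes MYC (9.12 and 3.77), Mga (3.98 and 2.08) and Mxi1 (2.54 and 2.25). The −log10 q was 0.0171 at Mga in the mutant rescue list, and 0.0207 and 0 at Mxi1. Among p53 targets 1 of 24 (4.17%, 0.105 to 21.1%) had a shared region, Rrm2b. The overlap there was 15 bp, and the −log10 q in the mutant rescue list was 0.393. Among KMT2/SETD1 subunits 1 of 19 (5.26%, 0.133 to 26.0%) had a shared region, Ncoa6 (3.44 and 3.55).

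Small lists of cell identity genes did not stand apart from the 3.42% of all genes within their counting error. No naive pluripotency gene of 24 had a shared region, which with exact counting allows a share of up to 14.2%. Etv4 and Lin28b were the 2 of 13 formative and primed genes (15.4%, 1.92 to 45.4%) and Vim the 1 of 13 fibroblast markers (7.69%, 0.195 to 36.0%). In the larger list of 1100 olfactory receptor genes 0 had one, which allows up to 0.335%, below the 3.42% of all genes. Wdr5 and Trp53, the genes knocked out, each had a WT rescue WDR5 region at a boundary that was not shared, and H3K4me3 in both lines. A peak list does not show whether a coding sequence is intact.

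Brd2, a bromodomain gene next to H2-DMa in the histocompatibility region, held the second widest region of 2578 bp, with folds of 18.2 and 8.57 and summits 707 and 720 bp downstream of its start.

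Promoters of shared regions carried E-boxes more often than other promoters. CACGTG occurred in 104 of 564 start windows (18.4%, 15.3 to 21.9%) with a shared summit within 1 kb, each window running from 250 bases before the start to 50 after. It occurred in 11.0% (9.78 to 12.4%) of 2273 windows with an unshared region, in 9.32% (8.71 to 9.96%) of 8472 with H3K4me3 in both lines and no WDR5 region, and in 7.14% of all 31396 windows. Base composition moved with these groups: the median GC content was 63.3% for shared, 64.3% for unshared, 61.7% for H3K4me3 without WDR5 and 53% for all. Among windows with 15 to 35 CpG pairs the E-box shares were 19.6% (15.6 to 24.2%), 12.5% (10.8 to 14.4%), 10.3% and 11.3%. Among shared windows outside ribosomal protein genes, 17.9% (11.3 to 26.2%) of those with a −log10 q of at least 2 in both lists had an E-box. Of the weaker ones 19.6% (15.9 to 23.7%) had it. Of all unshared windows with a WT rescue −log10 q of at least 2, 13.5% (8.94 to 19.3%) did. Those intervals overlap. A match is a description of the letters and not of binding.

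Ribosomal protein promoters held other motifs than the remaining shared promoters. E-boxes were in 2 of 33 ribosomal protein windows (6.06%, 0.743 to 20.2%) and in 102 of 531 others (19.2%, 15.9 to 22.8%), with intervals that overlap. The ZBTB33 core TCTCGCGA, on either strand, was in 7 of 33 (21.2%, 8.98 to 38.9%) and in 5.27% (3.53 to 7.53%) of the others, against 2.77% of unshared windows and 0.956% of all. Of the others with a −log10 q of at least 2 in both lists, 5.36% (1.99 to 11.3%) held it. Of unshared windows with a WT rescue −log10 q of at least 2, 4.32% (1.89 to 8.34%) did, an overlapping interval. The ETS core CCGGAAG was in 14 of 33 (42.4%, 25.5 to 60.8%) and in 20.7% (17.3 to 24.4%) of the others, against 18.7% of unshared windows and 9.004% of all. A run of at least 7 pyrimidines within 5 bases of the start was in 12 of 33 (36.4%, 20.4 to 54.9%), against 16.8% (13.7 to 20.2%) of other shared windows and 14.2% of all. For the ZBTB33 core, the ETS core and the run, the intervals of the 33 windows and of all other shared windows do not overlap. Rps6, Rpl7a and Rpl12, printed above, hold both the ZBTB33 core and such a run.

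Other motifs varied less between shared and unshared windows. The GC box GGGCGG was in 68.4% of shared, 69.6% of unshared and 67.2% of H3K4me3 windows without WDR5, against 36.0% of all windows. CCAAT was in 33.2%, 33.8%, 38.3% and 37.3%. NRF1 (GCGCATGCG) was in 3.90%, 4.27%, 3.10% and 1.74%, and YY1 (AAGATGGCG) in 4.08%, 4.05%, 2.29% and 1.39%. All were searched on both strands, and the GC box can overlap the ETS core.

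**Figure D4:**
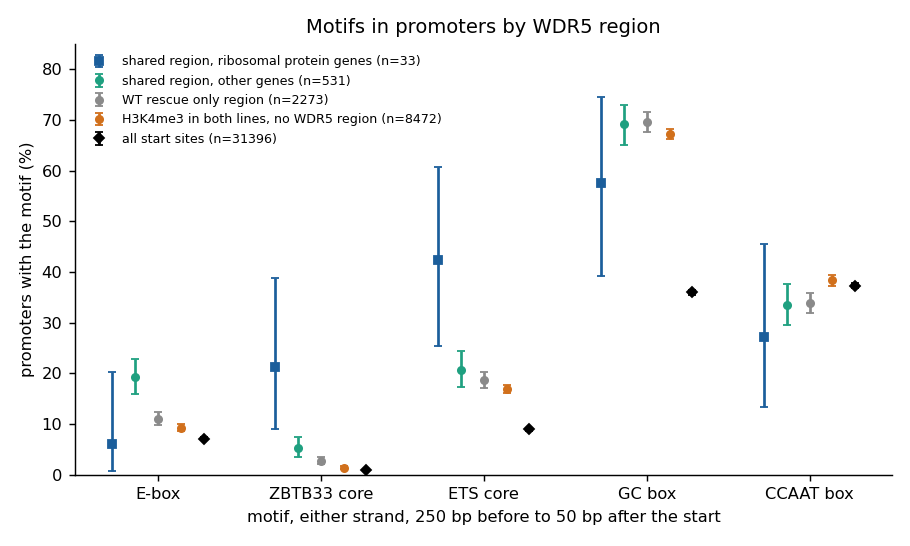
Percentage of promoter windows with each motif on either strand; points are shares and bars exact 95% binomial intervals. E-boxes are most frequent in shared windows of other genes (19.2%), and the ZBTB33 and ETS cores in ribosomal protein windows (21.2% and 42.4%).

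The highest folds and significances among the shared regions lay away from promoters. A class of 89 regions, 261 to 283 bp wide with WT rescue folds of 5.05 and above, was set apart, and its kind made up 0.96% of all WT rescue regions (105, of which 16 were unshared). Because the class was cut on the WT rescue fold alone, its lower median in the mutant rescue list (7.80, beside 16.4) follows in part from that choice and is not read as a difference. The summits lay a median of 6 bp apart. Only 2 lay at a gene boundary, and 73 overlapped WT rescue H3K4me3 regions whose median width was 283 bp, the width of the WDR5 regions themselves. Mutant rescue H3K4me3 was at 52 of the 89 (58.4%, 47.5 to 68.8%), and 21 had it in the WT rescue alone. The most significant of them in the WT rescue list, on chromosome 9 from 97324441 to 97324723, had folds of 55.5 and 61.0, and one inside Ube2e2 on chromosome 14 from 18698694 to 18698974 had 63.1 and 44.2. Others lay inside Arl15 (63.0 and 20.5), Cdh20 (50.7 and 17.7) and Ptprd (33.1 and 11.0). The H2-D1 region, 276 bp wide with folds of 25.7 and 16.5, is of this class.

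Another 62 regions, a class set after seeing the data, combined a low fold, under 4, with a −log10 q of at least 10, beside 0.731% of all WT rescue regions. Their median fold was 2.28, and all 62 overlapped H3K4me3 in both lines. Of these 15 lay on chromosome 9 between 3000000 and 3100000, 5 in one 10 kb stretch of chromosome 14 and 3 in one of chromosome 2. The last group holds the highest −log10 q of the list, 2563, in a region of fold 1.57 from 98666627 to 98667226. The inputs were not analysed here, so their part in these regions was not tested.

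Nearly all WT rescue regions near transfer RNA genes were shared. Of 67 within 200 bp of such a gene (0.612% of all), 66 had a mutant rescue region. The median fold was 2.88 with wild-type WDR5 and 7.61 with the mutant, and the median −log10 q was 0.631 and 27.4. The region at n-THgtg3 (chr2:122377465-122378371) had folds of 3.60 and 11.3. Spearman's rho between the folds was 0.127 over the 66 regions, against 0.510 over the 1097 regions outside these 3 classes. Without the 3 classes 84.3% (82.0 to 86.4%) of shared and 40.4% (39.4 to 41.4%) of unshared regions had WT rescue H3K4me3, and 55.3% and 28.4% lay at a gene boundary.

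Of 16 genes of RNA methylation 3 (18.8%, 4.05 to 45.6%) had a shared region at a boundary, beside 3.42% of all genes. Within the gene 5 held shared regions, while 871 of 20665 protein-coding genes were overlapped by a shared region. The list was chosen with these regions known, so the counts describe it and support nothing. At their boundaries Fto, Wtap, Cbll1 and Ythdc2 had no WDR5 region in either list, and Mettl14, Mettl16, Virma, Ythdc1 and Zc3h13 had unshared WT rescue regions only. Ythdf3, whose product reads N6-methyladenosine, held one of 1830 bp at chr3:16203717-16205546, with folds of 47.2 and 34.4 and summits 2 bp apart. Ythdf1 had one of 1603 bp with folds of 32.7 and 31.2, and Ythdf2 one of 1568 bp with 23.9 and 9.90. Mettl3, the methyltransferase, held 8 shared regions with WT rescue folds from 5.35 to 22.0 and mutant rescue folds from 1.70 to 9.36. The number was lower in the mutant rescue list at all 8. The regions of this paragraph were picked after their values were seen, so such an order is not read as a difference between lines. Alkbh5, a demethylase, held 4, with a highest fold of 30.9 beside 11.3. Of the 8 Mettl3 regions 6 overlapped H3K4me3 with wild-type WDR5 and 2 with the mutant. The WT rescue H3K4me3 region over the one at chr14:52304835-52305088 was 1501 bp wide (fold 10.3), and the mutant rescue had H3K4me3 there too (fold 11.9). The other WT rescue H3K4me3 regions were only 159 to 216 bp wide, with folds of 3.46 to 6.19.

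**Figure D5:**
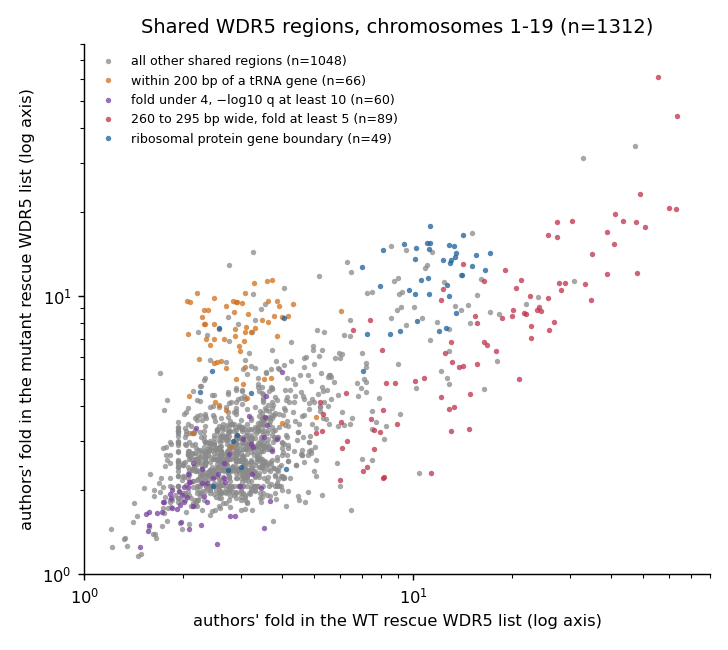
The authors' fold of each of the 1312 shared regions in the WT rescue (horizontal) and mutant rescue (vertical) WDR5 lists, both axes logarithmic, coloured by class. Regions near transfer RNA genes (orange) lie above the main cloud, narrow regions (red) lie at WT rescue folds of at least 5 because that value chose them, and ribosomal protein genes (blue) lie mostly between folds of 7 and 18 in both lists.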

How the data were processed

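Alignment and peak calling used BWA 0.7.17-r1188 and MACS2 2.1.2, with Picard and SAMtools as helpers and mm10 as the build, per the submitters' processing notes. Settings, controls and treatment of duplicates are not given in the sources used here. Each of the 4 deposited peak lists is from 1 library. The authors' lists give per region a position, a score, a fold (the ratio at the summit), both −log10 p and −log10 q, and a summit offset; the deposited score was not used. The smallest −log10 p in the authors' WDR5 lists was 2.00. Depth is unknown, so peak number and width may follow it.

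Overlaps of at least 1 bp were computed in Python 3.11.15 (numpy 2.4.6, pandas 2.3.3, scipy 1.17.1, matplotlib 3.10.9), and the overlap code was checked on simulated regions. Each shared region was paired with the mutant rescue region of largest overlap. Gene boundaries came from a RefSeq table on GRCm38.p6 without strand, and start sites from RefSeq promoters (31396 windows, 16457 of 20665 protein-coding genes). Summit positions and motifs therefore leave out genes without an entry and chromosome 18.

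Since each antibody has 1 library in each line, comparisons carry no p-value. The members, gene lists, classes and motifs were chosen with earlier results of these data known. Named regions follow a rule: the 15 most significant at a gene boundary, 10 away from one, the 5 widest, 5 without H3K4me3, 3 on each side of the overlap rule and up to 4 per gene list, by WT rescue −log10 q. The promoters printed, the ribosomal protein genes, the RNA methylation regions and Mir8105 beyond that rule were picked after their values were seen. Some regions the rule takes are not reported here. Alternatives changed the significance, the overlap, list length, window and the classes kept.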

Additional observations from a re-analysis of the deposited data

How the results depend on the processing

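Of 53 alternative values over the 7 main results, 31 stayed within the main interval or within 1.5 times the main count and 22 moved; the cause was not tested beyond the fewer regions each setting keeps. With both WDR5 lists at a −log10 q of at least 2, 430 regions were shared, 90.0% with WT rescue H3K4me3 and 35.1% at a boundary, at 178 genes, with a median fold of 5.02 and summits 17 bp apart. With a −log10 p of at least 5 these were 549 regions, 89.3%, 37.9%, 242 genes, 4.10 and 24 bp. With an overlap of at least 50% of both regions they were 812 regions, 43.97% at a boundary, 410 genes, a fold of 3.32 and 34 bp. Lists of equal length moved the median fold to 3.13. Without narrow regions, 51.3% lay at a boundary, with a fold of 2.96 and 68 bp. A window of 2.5 kb put 55.9% at a boundary. The E-box share ran from 15.5 to 18.9% and the ribosomal protein genes from 39 to 49. Removing regions of low fold and high significance, chosen after seeing the data, moved none of the 7. No paired analysis was possible because each antibody has 1 library per line. Depth is unknown, and a region of −log10 q near 0 cannot be told from background in a single library.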

Other observations

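Small RNA genes lay under some shared regions. Of 1286 small nucleolar RNA genes 13 were overlapped, by 12 shared regions, among them Snord68 within Rpl13 and Snora21 at Rpl23, and 7 of the 9630 unshared regions overlapped such a gene. Of 391 transfer RNA genes 36 were overlapped by shared regions, and 0 unshared regions overlapped one. Of 1136 microRNA genes 6 were overlapped by 6 shared regions, and 11 unshared regions overlapped one. Among the 6, Mir34b, a microRNA of the p53 pathway, had folds of 2.95 and 2.58 with a −log10 q of 0.437 and 0.175, and Mir8105 had folds of 4.31 and 9.35. The shared percentage by chromosome ran from 8.62% on chromosome 15 to 14.3% on chromosome 13.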
